A study of Mus musculus with 6 samples.

Results

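The Ighv1 family is the group of heavy chain variable (V) segments of the mouse immunoglobulin heavy chain locus whose symbols begin with Ighv1-. All 92 rows of the deposited table of 53677 genes with such a symbol were taken as members, whatever their values. The annotation places them on GRCm38 chromosome 12, between positions 114351705 and 116010093, all on the minus strand except Ighv1-13. It classes 53 of them as V genes and 38 as V pseudogenes, and Ighv1-13, which has 2 gene IDs, falls in neither count. RNA came from bone marrow cells of C57BL/6J background mice, sorted by a Lin- ckit+ CD48+ CD150- gate and called ST-HSC (short-term hematopoietic stem cells) by the submitters. There were 3 dnTCF4 libraries (genotype label dnTCF4+/+), from mice that express a dominant-negative form of the transcription factor TCF4, and 3 WT libraries (genotype label dnTCF4-/-). The labels give neither the age of the mice nor the promoter, driver or cell type of the transgene.

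A heavy chain gene is assembled in developing B cells, when the RAG recombinase joins a V segment to a D and a J segment. The joined V segment encodes most of the antigen-binding face of the antibody heavy chain. Its transcription rises as B cells mature and is highest in plasma cells, the antibody-secreting end of the lineage, and each B cell clone carries its own choice of segment. Ighv1, known from older work as the J558 group, is the largest V family of the mouse and lies in the part of the locus far from the D segments. Pseudogene segments cannot encode a complete V domain.

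Genes of the sort gate were present in both genotypes, and of 7 such genes limma tested 6 and called 0, with 0 at an unadjusted p under 0.05. Kit spanned 35.5 to 97.1 RPKM in dnTCF4 and 47.3 to 83.7 RPKM in WT, Cd48 spanned 999.8 to 1415 RPKM in dnTCF4 and 813 to 994 RPKM in WT, and Slamf1, which encodes CD150, spanned 0.744 to 1.18 RPKM in dnTCF4 and 0.792 to 1.15 RPKM in WT. TCF4 is taken here as the product of Tcf7l2, which was at 2.15, 1.99 and 2.80 RPKM in dnTCF4 and 1.56, 1.29 and 1.69 RPKM in WT (limma adjusted p = 0.52), and the labels do not say whether reads of the transgene would count there. The libraries held 57384595 to 110895167 counted reads in dnTCF4 and 61766351 to 67707182 in WT, as recovered from the values. On a segment of 351 bases, the median length of the members, 1 RPKM (a read count scaled to gene length and to the library's total) stood for 20.1 to 38.9 reads. Where a segment is listed at 0, a limit of 3 reads allows up to 0.149 RPKM in the shallowest library, for counting error only.

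Members resemble one another in sequence, which bears on every value below. The exon that encodes the V region was 305 bases long in 49 of the 53 V genes, and these exons differed from the majority base of the 49 at 19 to 62 positions (median 27). The 4 segments that held the highest value of at least 1 library are shown first, since dominance turns on them. They were Ighv1-53 (shown over chr12:115158403-115158696), Ighv1-39 (chr12:114914599-114914892), Ighv1-26 (chr12:114788372-114788665) and Ighv1-78 (chr12:115868773-115869066). Shown are the last 294 bases of each exon, which leave out the end of the leader, from the GENCODE transcripts on GRCm38, on the minus strand and written 5′ to 3′. Capitals mark the bases that differ from the majority base of the 49 exons.
Ighv1-53: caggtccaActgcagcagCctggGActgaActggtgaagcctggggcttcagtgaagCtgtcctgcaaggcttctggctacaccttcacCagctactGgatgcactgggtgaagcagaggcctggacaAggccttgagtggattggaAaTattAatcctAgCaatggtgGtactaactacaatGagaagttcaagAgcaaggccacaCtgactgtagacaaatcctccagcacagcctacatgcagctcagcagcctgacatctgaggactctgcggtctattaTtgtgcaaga
Ighv1-39: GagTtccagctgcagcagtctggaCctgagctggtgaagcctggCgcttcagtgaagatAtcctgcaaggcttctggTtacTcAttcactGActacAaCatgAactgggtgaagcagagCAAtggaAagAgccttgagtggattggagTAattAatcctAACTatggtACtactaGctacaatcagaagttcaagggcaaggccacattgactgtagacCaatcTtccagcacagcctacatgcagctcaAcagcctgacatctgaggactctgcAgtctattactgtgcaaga
Ighv1-26: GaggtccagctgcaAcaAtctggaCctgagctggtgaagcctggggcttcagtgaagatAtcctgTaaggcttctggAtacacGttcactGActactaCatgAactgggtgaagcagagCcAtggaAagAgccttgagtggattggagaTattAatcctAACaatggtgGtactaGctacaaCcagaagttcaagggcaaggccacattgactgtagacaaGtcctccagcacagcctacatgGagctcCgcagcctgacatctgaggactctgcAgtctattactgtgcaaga
Ighv1-78: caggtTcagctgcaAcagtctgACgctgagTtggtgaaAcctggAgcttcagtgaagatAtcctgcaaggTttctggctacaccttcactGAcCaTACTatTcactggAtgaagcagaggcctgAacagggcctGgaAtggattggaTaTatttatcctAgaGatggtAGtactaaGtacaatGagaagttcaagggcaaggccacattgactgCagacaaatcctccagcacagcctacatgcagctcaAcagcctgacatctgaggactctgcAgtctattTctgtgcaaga

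The next 4 segments passed the test between genotypes and are shown because they carry that comparison. They were Ighv1-47 (chr12:114991108-114991401), Ighv1-42 (chr12:114937113-114937406), Ighv1-11 (chr12:114612243-114612536) and Ighv1-15 (chr12:114657353-114657646), on the same strand and written in the same way.
Ighv1-47: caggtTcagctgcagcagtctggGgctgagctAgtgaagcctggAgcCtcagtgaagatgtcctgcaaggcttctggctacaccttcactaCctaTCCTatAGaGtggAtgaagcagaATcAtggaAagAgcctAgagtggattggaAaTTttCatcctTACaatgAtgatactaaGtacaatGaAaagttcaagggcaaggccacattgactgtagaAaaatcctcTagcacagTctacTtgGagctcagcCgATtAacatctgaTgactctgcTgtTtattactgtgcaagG
Ighv1-42: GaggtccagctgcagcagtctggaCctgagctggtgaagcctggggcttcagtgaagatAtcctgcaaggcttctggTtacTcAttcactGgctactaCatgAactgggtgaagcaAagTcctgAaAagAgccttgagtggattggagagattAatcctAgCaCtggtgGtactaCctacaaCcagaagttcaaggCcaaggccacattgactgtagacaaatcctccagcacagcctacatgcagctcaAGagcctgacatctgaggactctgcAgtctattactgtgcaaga
Ighv1-11: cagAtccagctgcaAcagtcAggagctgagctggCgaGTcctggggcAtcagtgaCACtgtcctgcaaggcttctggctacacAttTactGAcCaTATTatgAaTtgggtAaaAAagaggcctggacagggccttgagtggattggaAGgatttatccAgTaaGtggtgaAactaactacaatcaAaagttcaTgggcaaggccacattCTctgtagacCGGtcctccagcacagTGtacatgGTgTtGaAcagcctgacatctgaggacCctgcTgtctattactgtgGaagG
Ighv1-15: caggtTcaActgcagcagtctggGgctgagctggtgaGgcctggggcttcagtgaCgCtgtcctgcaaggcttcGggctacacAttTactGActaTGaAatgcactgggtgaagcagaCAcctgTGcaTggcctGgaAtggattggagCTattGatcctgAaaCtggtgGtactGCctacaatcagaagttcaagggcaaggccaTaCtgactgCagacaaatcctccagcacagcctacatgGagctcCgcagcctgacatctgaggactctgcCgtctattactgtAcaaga
Ighv1-11 differed from the majority base at 50 positions of the whole exon and Ighv1-47 at 44, while Ighv1-53 differed at 19. Among these 8 segments, exon identity was between 76.7% (Ighv1-47 and Ighv1-11) and 92.8% (Ighv1-42 with Ighv1-39 and with Ighv1-26). Over all members, the median identity of a V gene to its nearest other member was 96.1%, and 10 of the 53 V genes had a neighbour at 98% or more. The exons of Ighv1-62-2 and Ighv1-71 were identical over their aligned length, so a read wholly within that length cannot be assigned to either segment by its sequence. Their recovered reads differed all the same. Ighv1-62-2 held 24, 0 and 882 reads in dnTCF4 and 664, 348 and 799 in WT, and Ighv1-71 held 11, 208 and 5 in dnTCF4 and 222, 285 and 494 in WT. Among the called segments, Ighv1-15 was 98.4% identical to Ighv1-23 and Ighv1-42 was 97.0% identical to Ighv1-43. How the authors counted reads that match several segments is not given in the sources used here, so values of single segments are uncertain, and sums over the family less so.

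The summed level of the family was lower in all dnTCF4 libraries than in any WT library. The sums were 1981, 654 and 918 RPKM in dnTCF4 replicates 1, 2 and 3, against 20549.8, 4857 and 7840.2 RPKM in WT replicates 1, 2 and 3. They averaged 1184 ± 703 in dnTCF4 and 11082 ± 8334 in WT (SD, n = 3 each). The lowest WT sum was that of replicate 2 and the highest dnTCF4 sum that of replicate 1, and the groups did not overlap. The mean log2 sum in dnTCF4 minus that in WT was -3.12, and other log2 differences of sums were taken in the same way. Without WT replicate 1, the library with the largest sum, this difference was -2.54. The members were chosen with results of these data known, so no p is given for a sum. As a share of counted reads, the family took 0.0730, 0.0237 and 0.0333 in dnTCF4 replicates 1, 2 and 3, and 0.760, 0.180 and 0.290 in WT replicates 1, 2 and 3 (percent). In bulk samples such as these, fewer cells that carry a transcript and less of it per cell cannot be told apart.

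The lower sums in dnTCF4 were those of the V genes, while the sums of the pseudogenes overlapped. V genes summed to 1159.7 ± 691 in dnTCF4 and 11047 ± 8302 in WT (RPKM, SD, n = 3 each), without overlap. Pseudogenes summed to 37.8, 13.3 and 23.1 RPKM in dnTCF4 replicates 1, 2 and 3, against 73.5, 19.7 and 11.6 RPKM in WT replicates 1, 2 and 3. The log2 difference of the pseudogene sums was -0.18, against -3.15 for the V genes. The pseudogenes made up 2.15 ± 0.322 in dnTCF4 and 0.304 ± 0.137 in WT of the family's summed RPKM (percent, SD, n = 3 each). The difference between the classes was not tested. The highest value of a pseudogene in any library was 28.5 RPKM, for Ighv1-62 in WT replicate 1. Every other library had it at 0.770 RPKM or less. Ighv1-62 was 97.0% identical to the V gene Ighv1-55, which was at 2643 RPKM in WT replicate 1. Whether reads of one were counted for the other was not tested. Ighv1-41, a pseudogene, was at 3.04, 1.95 and 4.93 RPKM in the dnTCF4 libraries and 1.15, 1.18 and 2.15 RPKM in the WT libraries. Ighv1-79, also a pseudogene, was at 11.7, 4.38 and 7.92 RPKM in the dnTCF4 libraries and 13.2, 2.87 and 1.90 RPKM in the WT libraries. Both had a log2 fold change above 0 (0.75 and 0.64) that did not pass (limma adjusted p = 0.49 and 0.72), and both were picked as examples after their values were seen.

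**Figure D1:**
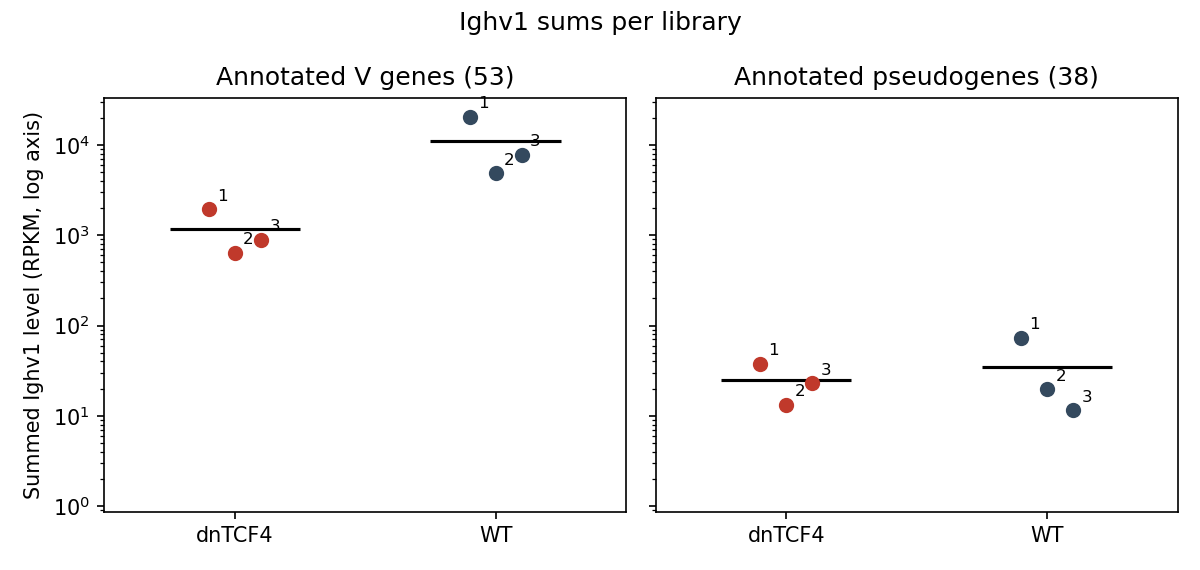
Summed level of the annotated V genes (left panel) and pseudogenes (right panel) of the Ighv1 family in each library, in RPKM on a log axis, with the replicate number beside each point and a line at the group mean. The V gene sums are 640.5 to 1943 RPKM in dnTCF4 and 4837 to 20476 RPKM in WT, while the pseudogene sums overlap at 13.3 to 37.8 RPKM and 11.6 to 73.5 RPKM.

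Of the 92 members, 58 reached the mean of 1 RPKM over the 6 libraries needed for testing, of which 50 were V genes and 8 pseudogenes. The test compared log2(RPKM + 1) across all 11326 genes that passed this filter with limma, and a gene with a Benjamini-Hochberg adjusted p under 0.05 was called. It called 5 of the 58 members lower in dnTCF4 and 0 higher, where 0.256% of all tested genes were called lower. The filter averages both genotypes, so a segment with a dnTCF4 mean below 1 RPKM can pass only with a higher mean in WT. The called Ighv1-47, Ighv1-42 and Ighv1-11 passed in this way, with dnTCF4 means of 0, 0.199 and 0.299 RPKM. For such members the lower mean in dnTCF4 was fixed by the filter. At an unadjusted p under 0.05, 31 members were lower, against 2.10% of all genes tested. In 24 of the 58 the values of the genotypes did not overlap, with dnTCF4 lower in each, a pattern seen in 2.26% of all genes tested. All 24 were V genes, and 1 member too low to test, Ighv1-21, showed the same order. Values that did not overlap with dnTCF4 higher were seen in 0 of the 58, against 15.4% of all genes tested, and in 1 member too low to test, the pseudogene Ighv1-28, at 5, 9 and 5 reads in dnTCF4 and 3, 0 and 1 reads in WT. The median log2 fold change of the 58 was -2.64, against 0.14 for all genes tested. By class it was -2.88 for the 50 V genes, 47 of which had a negative sign, and -0.24 for the 8 pseudogenes, 5 of which had one. Of the remaining 34 members, 9 were listed at 0 in every library. Without the filter 83 members were tested, of which 64 had a negative sign, with a median of -1.48 and 0 calls by limma (28 at an unadjusted p under 0.05). Over all 30670 genes tested without the filter, the median was 0.02, with 5 calls lower in dnTCF4 and 2309 genes at an unadjusted p under 0.05.

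Ighv1-47 (ENSMUSG00000076709.2) was the called member with the largest log2 difference. It was at 0, 0 and 0 RPKM in dnTCF4 replicates 1, 2 and 3, against 79.9, 69.2 and 549.6 RPKM in WT replicates 1, 2 and 3 (log2 fold change -7.19, SE 0.73, limma adjusted p = 0.025). All dnTCF4 libraries were listed at 0, with 0 reads, while the WT libraries held 2014, 1697 and 14772 reads. Set against 3 reads in the shallowest dnTCF4 library, the lowest WT value was at least 525.5-fold higher. Ighv1-42 (ENSMUSG00000094652.2) was at 0.0904, 0.308 and 0.199 RPKM in dnTCF4 replicates 1, 2 and 3, against 511, 44.6 and 64.5 RPKM in WT replicates 1, 2 and 3 (log2 fold change -6.59, SE 0.82, limma adjusted p = 0.038). The dnTCF4 values rested on 2, 12 and 4 reads, against 11390, 968 and 1532 in WT, and the groups were far apart. Ighv1-11 (ENSMUSG00000102888.1) was at 0.271, 0.128 and 0.496 RPKM in dnTCF4 replicates 1, 2 and 3, against 106, 12.8 and 33.8 RPKM in WT replicates 1, 2 and 3 (log2 fold change -4.85, SE 0.66, limma adjusted p = 0.046), with 6, 5 and 10 reads in dnTCF4. These 3 segments were the only members at 1 RPKM or more in all 3 WT libraries and below it in all 3 dnTCF4 libraries.

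Ighv1-15 (ENSMUSG00000103254.1) differed less than these 3 segments and was well above 1 RPKM in every library. It was at 17.8, 38.3 and 41.1 RPKM in dnTCF4 replicates 1, 2 and 3, against 241, 165 and 222 RPKM in WT replicates 1, 2 and 3 (log2 fold change -2.72, SE 0.34, limma adjusted p = 0.038). Every dnTCF4 value lay below every WT value. The count of 5 called members rested on single libraries, being 1 without dnTCF4 replicate 2, 1 without dnTCF4 replicate 3, 1 without WT replicate 1 and 9 without WT replicate 2. Over all genes tested, the calls lower in dnTCF4 went from 29 to 16, 11, 7 and 34 in the same order. The 5 members kept their calls in 1 to 3 of the 6 fits that left out a library. Adjusted p in those fits reached 0.097 for Ighv1-47, 0.16 for Ighv1-42, 0.20 for Ighv1-11 and 0.15 for Ighv1-15. With the replicate number as a block, limma called 9 members lower, against 0.371% of all genes tested, and 3 of the 9 were among the 5. The block ended the calls of Ighv1-42 (adjusted p = 0.051) and Ighv1-15 (adjusted p = 0.069), and among the segments described here it added Ighv1-9 (adjusted p = 0.035), Ighv1-64 (adjusted p = 0.048) and Ighv1-81 (adjusted p = 0.018).

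The most abundant segments did not pass the test, and their values spread widely within each genotype. Ighv1-26 (ENSMUSG00000094546.1), the segment with the highest mean over the 6 libraries, was at 69.4, 18.5 and 397 RPKM in dnTCF4 replicates 1, 2 and 3, against 3223, 549.6 and 800.3 RPKM in WT replicates 1, 2 and 3 (log2 fold change -3.78, SE 1.11, limma adjusted p = 0.32). The dnTCF4 values all lay below the WT values, but replicate 3 was 21.5 times replicate 2. Ighv1-55 was at 33.3, 32.5 and 82.3 RPKM in dnTCF4 replicates 1, 2 and 3, against 2643, 482 and 515 RPKM in WT replicates 1, 2 and 3 (log2 fold change -4.25, SE 0.69, limma adjusted p = 0.092), without overlap. Ighv1-9 was at 36.0, 0 and 0 RPKM in dnTCF4 replicates 1, 2 and 3, against 2128, 415 and 764 RPKM in WT replicates 1, 2 and 3 (log2 fold change -8.04, SE 1.40, limma adjusted p = 0.11). It was among the 3 highest segments of WT replicates 1 and 3 and was listed at 0 in 2 dnTCF4 libraries, 1 of them the deepest of the 6. Ighv1-64 was at 47.9, 0.0668 and 9.81 RPKM in the dnTCF4 libraries and 1399, 187 and 258 RPKM in the WT libraries, and its groups did not overlap. Ighv1-81 was at 65.0, 16.1 and 28.1 RPKM in the dnTCF4 libraries and 763, 134 and 243 RPKM in the WT libraries, and Ighv1-72 at 30.8, 16.4 and 2.42 RPKM in the dnTCF4 libraries and 556, 134 and 398 RPKM in the WT libraries. Both were lower in every dnTCF4 library than in any WT library, with limma adjusted p = 0.17 and 0.12. Ighv1-34 was at 49.2, 0 and 5.17 RPKM in the dnTCF4 libraries and 270.2, 512 and 69.0 RPKM in the WT libraries (limma adjusted p = 0.30), and the groups did not overlap.

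Other abundant segments overlapped between the genotypes. Ighv1-53 was at 343, 64.4 and 19.7 RPKM in the dnTCF4 libraries and 1417, 229 and 167 RPKM in the WT libraries, so that dnTCF4 replicate 1 lay above WT replicates 2 and 3. Ighv1-78 was at 22.2, 42.3 and 25.7 RPKM in the dnTCF4 libraries and 191, 31.0 and 824 RPKM in the WT libraries. In that segment WT replicate 3 was 4.32 times the next library, WT replicate 1, while WT replicate 2 lay below dnTCF4 replicate 2. Ighv1-80 was at 13.1, 0.180 and 42.8 RPKM in the dnTCF4 libraries and 809, 29.1 and 33.4 RPKM in the WT libraries. In that segment WT replicate 1 was 18.9 times the next library, which was dnTCF4 replicate 3, above WT replicates 2 and 3. Ighv1-7 was at 2.17, 12.4 and 0.539 RPKM in the dnTCF4 libraries and 456, 10.8 and 13.0 RPKM in the WT libraries, and WT replicate 1 was 35.1 times the next library. Ighv1-36 was at 3.75, 44.0 and 0.348 RPKM in the dnTCF4 libraries and 292, 17.3 and 0 RPKM in the WT libraries, and dnTCF4 replicate 2 lay above WT replicates 2 and 3. Ighv1-39 was at 23.2, 72.6 and 12.2 RPKM in the dnTCF4 libraries and 329.7, 59.1 and 24.7 RPKM in the WT libraries. Limma adjusted p for these 6 segments was between 0.51 and 0.79.

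**Figure D2:**
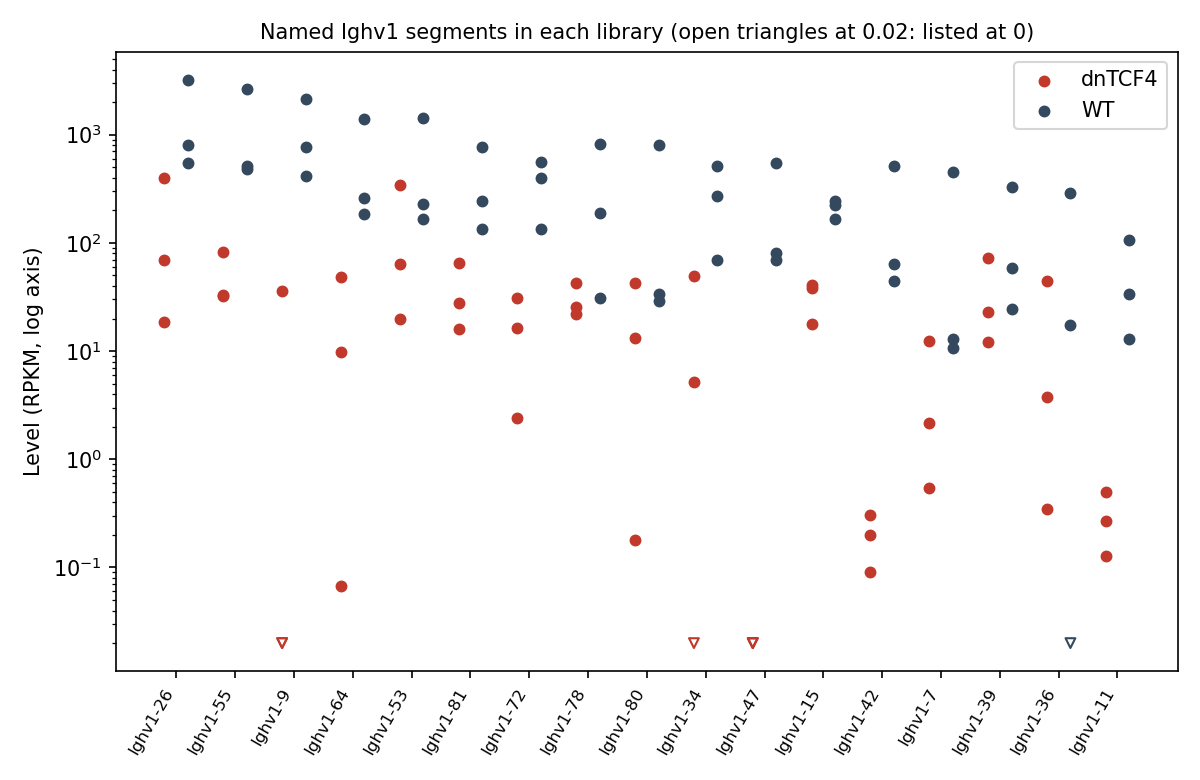
Level in RPKM, on a log axis, of 17 Ighv1 segments in each library, with dnTCF4 points left of WT points for each segment and open triangles for values listed at 0. Ighv1-47, Ighv1-42 and Ighv1-11 show the widest gaps between the genotypes, while Ighv1-53, Ighv1-78, Ighv1-80, Ighv1-7, Ighv1-39 and Ighv1-36 overlap.

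The number of segments detected differed less than the summed level. At 1 RPKM or more, the libraries held 46, 32 and 34 segments in dnTCF4 replicates 1, 2 and 3, and 59, 49 and 46 segments in WT replicates 1, 2 and 3, of the 92 members. The means were 37.3 ± 7.57 in dnTCF4 and 51.3 ± 6.81 in WT (SD, n = 3 each), and the groups met at 46 segments. At 10 RPKM or more, they held 33, 20 and 18 segments in dnTCF4 replicates 1, 2 and 3, and 47, 39 and 39 segments in WT replicates 1, 2 and 3, without overlap. At 100 RPKM or more, they held 5, 0 and 1 segments in dnTCF4 replicates 1, 2 and 3, and 32, 16 and 20 segments in WT replicates 1, 2 and 3, again without overlap. Counting any value above 0, the numbers overlapped widely, at 60 to 71 in dnTCF4 and 65 to 75 in WT. The family held 19110 to 46049 reads in dnTCF4 libraries and 110913 to 482599 in WT libraries. At an equal number of 19110 Ighv1 reads per library, the expected number of segments with a read was 62.7 ± 4.22 in dnTCF4 and 58.4 ± 2.81 in WT (SD, n = 3 each), a difference of 4.31 segments. The same count of segments with any value above 0 differed by -5.33 without equal numbers of reads.

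Detection in single libraries was patchy in both genotypes. Of the 92 members, 21 were detected at 1 RPKM or more in all 6 libraries, 6 in 1 library alone and 30 in none. In all 3 libraries of a genotype, 23 were detected in dnTCF4 and 42 in WT. In at least 1 library of a genotype, 50 were detected in dnTCF4 and 61 in WT, with 1, Ighv1-14, detected in dnTCF4 alone and 12 in WT alone. By class, 51 of 53 V genes and 11 of 38 pseudogenes were detected somewhere. In dnTCF4, 16 of the 36 V genes that reached 10 RPKM in a library were below 1 RPKM in another library of the genotype. In WT this held for 9 of 47. The number of V genes listed at 0 was 3, 13 and 5 in dnTCF4 replicates 1, 2 and 3, and 2, 3 and 3 in WT replicates 1, 2 and 3. The highest number was in dnTCF4 replicate 2, the library with the most counted reads and the lowest Ighv1 sum.

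**Figure D3:**
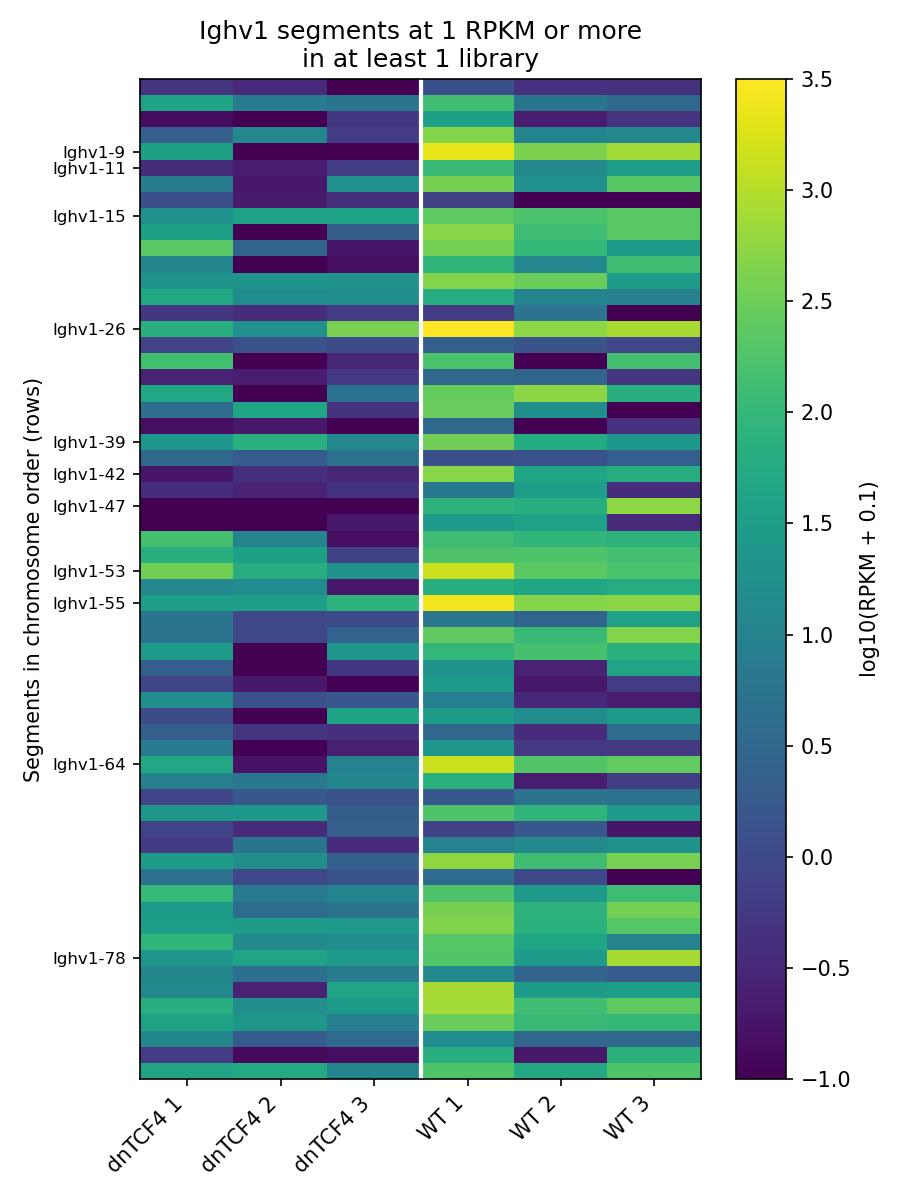
Level of the 62 Ighv1 members that reached 1 RPKM in at least 1 library, as log10(RPKM + 0.1), with libraries in columns and segments in rows in their order along chromosome 12, of which 11 are labelled. Many segments are lower in the dnTCF4 columns, others overlap between the genotypes, and 23 members are at 1 RPKM or more in all 3 dnTCF4 columns, against 42 in all 3 WT columns.

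In most libraries the family was spread over many segments, with 1 exception. The highest segment took 17.3, 11.1 and 43.2% of summed Ighv1 RPKM in dnTCF4 replicates 1, 2 and 3, and 15.7, 11.3 and 10.5% in WT replicates 1, 2 and 3. It was Ighv1-53 in dnTCF4 replicate 1, Ighv1-39 in dnTCF4 replicate 2, Ighv1-26 in dnTCF4 replicate 3 and in WT replicates 1 and 2, and Ighv1-78 in WT replicate 3. In dnTCF4 replicate 3, Ighv1-26 held 7996 of the 19110 Ighv1 reads, and 2 segments made up 50% of the summed RPKM. In the other 5 libraries 5 to 7 segments were needed for that share. The inverse Simpson index, which gives the number of equally abundant segments with the same concentration, was 15.0, 17.4 and 4.82 in dnTCF4 replicates 1, 2 and 3, and 14.2, 17.1 and 17.7 in WT replicates 1, 2 and 3. The top shares averaged 23.9 ± 17.0 in dnTCF4 and 12.5 ± 2.78 in WT (percent, SD, n = 3 each) and overlapped. Their difference of 11.4 percentage points was 1.71 without dnTCF4 replicate 3. The 10 highest segments took 70.5 ± 7.66 in dnTCF4 and 66.5 ± 1.17 in WT (percent, SD, n = 3 each), again with overlap.

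**Figure D4:**
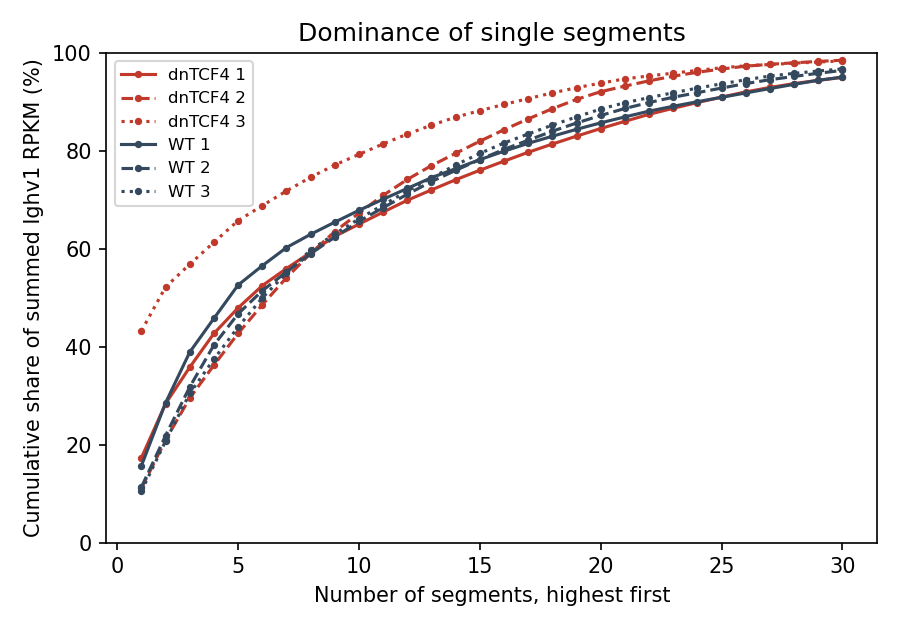
Cumulative share of summed Ighv1 RPKM, in percent, held by the highest 1 to 30 segments of each library, with dnTCF4 libraries in red and WT libraries in dark blue. The curve of dnTCF4 replicate 3 starts at 43.2% and reaches 79.3% at 10 segments, where the other 5 start between 10.5% and 17.3% and reach 65.0% to 67.9%.

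Different libraries were led by different segments, and WT libraries shared more of them than dnTCF4 libraries did. Of the 10 highest segments, the 3 pairs of dnTCF4 libraries shared 2, 2 and 4, the 3 pairs of WT libraries shared 4, 5 and 6, and the 9 pairs of different genotype shared 2 to 5. Pairs of different genotype with the same replicate number shared 3, 4 and 4. The 6 lists held 30 segments in all, 15 of them in a single list and 0 in all 6. Ighv1-26 came in every list except that of dnTCF4 replicate 2, and Ighv1-55 in every list except that of dnTCF4 replicate 1. The 3 dnTCF4 lists had 0 segments in common, whereas the 3 WT lists had 4, namely Ighv1-26, Ighv1-55, Ighv1-64 and Ighv1-9. Ighv1-64 and Ighv1-9 were in 0 of the dnTCF4 lists. Measured over all members, the share of summed RPKM that a pair of libraries held in common, taking the lower of the 2 shares of each segment, was 32.0% to 45.4% in dnTCF4 pairs and 61.5% to 70.3% in WT pairs. It was 38.6% to 52.9% in pairs of different genotype. Spearman's rho over the 53 V genes was 0.43 to 0.49 in dnTCF4 pairs, 0.64 to 0.74 in WT pairs and 0.17 to 0.57 in pairs of different genotype, as a description of segments that share sequence and libraries that share members across pairs. The number of Ighv1 reads moved with these values, being 19110 to 46049 in dnTCF4 and 110913 to 482599 in WT, and its part in the sharing was not tested. The gap between the genotypes depended on the length of the list and was larger for the 5 highest segments and small for the 20 highest.

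**Figure D5:**
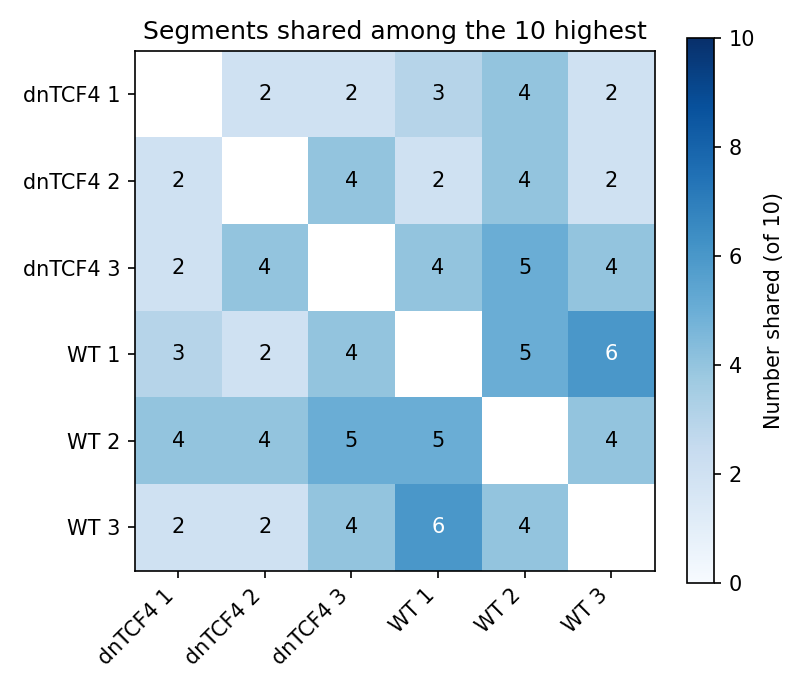
Number of segments that each pair of libraries has in common among the 10 highest Ighv1 segments of each, with dnTCF4 libraries before WT libraries on both axes. WT pairs share 4 to 6, dnTCF4 pairs 2 to 4, and pairs of different genotype 2 to 5.

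The other heavy chain V segments, 91 in all, had a lower summed level in dnTCF4 too. Ighv1 took 37.0 ± 9.99 in dnTCF4 and 38.1 ± 11.2 in WT of summed heavy chain V RPKM (percent, SD, n = 3 each). Its ranges of 28.6% to 48.0% in dnTCF4 and 26.9% to 49.3% in WT overlapped. Heavy chain V segments outside Ighv1 summed to 1897 ± 557 in dnTCF4 and 15686 ± 4737 in WT (RPKM, SD, n = 3 each), a log2 difference of -3.06 against -3.12 for Ighv1. Of 15 other families, 12 were above 0 in every library, and in 9 of those the dnTCF4 sums all lay below the WT sums, with log2 differences of -3.92 to -2.33. The other 3 overlapped, with log2 differences of -3.82 for Ighv9, -1.68 for Ighv4 and 0.82 for Ighv12. Ighv4 summed to 7.23, 22.2 and 567 RPKM in dnTCF4 replicates 1, 2 and 3, and 219.96, 157.6 and 86.2 RPKM in WT replicates 1, 2 and 3, so that dnTCF4 replicate 3 lay above every WT library. Ighv12 summed to 35.2, 26.3 and 53.4 RPKM in dnTCF4 replicates 1, 2 and 3, and 87.5, 144.2 and 0.711 RPKM in WT replicates 1, 2 and 3, with WT replicate 3 alone below the dnTCF4 libraries. Ighm, the mu constant gene, was at 1910.1 ± 768 RPKM in dnTCF4 and 11319 ± 2107 RPKM in WT (SD, n = 3 each, log2 fold change -2.65, limma adjusted p = 0.042). The ratio of summed Ighv1 RPKM to Ighm RPKM was 0.626 ± 0.237 in dnTCF4 and 0.932 ± 0.545 in WT (SD, n = 3 each), with overlap. It takes in Ighm alone of 8 heavy chain constant genes listed. Limma tested 7 of the 8, 6 of them with a negative sign, against 31.5% of all genes tested. It called 1, Ighm, where 0.256% of all genes tested were called lower. In 5 of the 8 the dnTCF4 values all lay below the WT values, against 2.26% of all genes tested. Ighd had a log2 fold change of 0.09. With the members split at the middle of their order along the locus, those nearer the D segments took 43.7 ± 12.0 in dnTCF4 and 44.2 ± 7.68 in WT of the family's RPKM (percent, SD, n = 3 each), also with overlap.

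Most plasma cell markers were lower in every dnTCF4 library than in any WT library, as the Ighv1 sum was. Of 12 plasma cell markers, 9 had dnTCF4 values that all lay below the WT values, against 2.26% of all genes tested, and the list summed to 367 to 733 RPKM in dnTCF4 and 2715 to 7915 RPKM in WT. Limma tested 11 of them and called 0, with 10 at a negative sign, 8 at an unadjusted p under 0.05 and a median log2 fold change of -1.07, against 0.14 for all genes tested. At that unadjusted p, 2.10% of all genes tested were lower. Jchain, which encodes the chain that joins IgM and IgA into polymers, was at 503 ± 190.0 RPKM in dnTCF4 and 4214 ± 2905 RPKM in WT (SD, n = 3 each, limma adjusted p = 0.10). It made up most of the plasma cell list's sum in every library. Tnfrsf17, the plasma cell receptor BCMA, was at 2.86 ± 2.20 RPKM in dnTCF4 and 19.2 ± 7.58 RPKM in WT (SD, n = 3 each, limma adjusted p = 0.11). Sdc1, which encodes CD138, was at 1.51 ± 0.987 RPKM in dnTCF4 and 1.79 ± 0.315 RPKM in WT (SD, n = 3 each, limma adjusted p = 0.77). Of 12 markers of mature B cells, 2 had dnTCF4 values that all lay below the WT values, against the same 2.26% of all genes tested. They were Cd79a (3.29 to 20.3 RPKM in dnTCF4, 26.0 to 68.7 RPKM in WT) and Cd74 (247 to 536 RPKM in dnTCF4, 605 to 780 RPKM in WT). The list summed to 387 to 681 RPKM in dnTCF4 and 731 to 960.0 RPKM in WT, and Cd74 made up most of that sum in every library. Limma tested 6 of the 12 and called 0, with 4 at a negative sign, where 31.5% of all genes tested had one. In that list Cd79b was at 94.2 to 125 RPKM in dnTCF4 and 90.7 to 124 RPKM in WT. Pax5, a defining factor of B cells, was at or near 0 (0.00591 to 0.0466 RPKM in dnTCF4 and 0 to 0.0320 RPKM in WT).

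Of 15 genes of early B cells and of V(D)J recombination, 0 had dnTCF4 values that all lay below the WT values, which is near the share of 2.26% over all genes tested, and their sums overlapped at 254 to 554 RPKM in dnTCF4 and 313 to 837 RPKM in WT. Of the 12 tested by limma, 2 had a negative sign, where 31.5% of all genes tested did, 0 were called and 0 had an unadjusted p under 0.05. Rag1, which encodes the cutting subunit of the recombinase, was at 0.0491 to 0.612 RPKM in dnTCF4 and 0.0559 to 0.286 RPKM in WT, and Rag2, its partner, at 6.74 to 12.3 RPKM in dnTCF4 and 6.04 to 14.6 RPKM in WT. Dntt, which encodes the polymerase that adds bases at the joints, was at 86.6 to 354 RPKM in dnTCF4 and 168 to 643 RPKM in WT. T cell markers summed to 2.26 to 6.01 RPKM in dnTCF4 and 2.18 to 5.69 RPKM in WT. Neutrophil markers summed to 2476 to 6308 RPKM in dnTCF4 and 524 to 2436 RPKM in WT, and limma called 0 of 7, with 6 at a positive sign and 5 at an unadjusted p under 0.05. Most genes tested had a positive sign too, as only 31.5% had a negative one. Of all 11326 genes tested, 1090 had an unadjusted p under 0.05 in either direction. The part of any of these cell types in the Ighv1 values was not tested.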

How the data were processed

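The authors deposited 1 table of RPKM values, with 1 column per library and none pooled. The submitters' processing notes list GRCm38 and mm10 as builds and, as tools, edgeR, DESeq2, featureCounts and STAR, with roles, versions and annotation not given in the sources used here. Per the labels' protocols, SMART-Seq v4 was the cDNA kit and Nextera XT the library kit, and neither marks strand (the series' design text names another cDNA kit of the same maker's SMARTer line). Columns were matched to samples by the names in the descriptions.

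Symbols were matched to GENCODE M21, where all 92 members were found. RPKM multiplied by exon length came out whole (tolerance 0.02 reads) for 92.9% to 93.3% of genes per library and for every member except Ighv1-13, which has 2 gene IDs. This gave the counted reads. Limma 3.58.1 in R 4.3.3 (eBayes with trend, two-sided) was fitted to log2(RPKM + 1) with genotype as the only term, over genes averaging 1 RPKM or more. Fold changes, dnTCF4 minus WT, are on this scale, which makes those of low genes too small. The fit was also run on simulated data in which every gene had the same dispersion. That run therefore does not test calls on segments that vary widely between replicates. Descriptions and plots used Python 3.11.15, pandas 2.3.3, Biopython 1.88 and matplotlib 3.10.9. Sums, detection, dominance and sharing were described without a test.

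The members, lists and rules were chosen with earlier results of these data known. Named members are the highest of each library, the 10 highest means, called members without overlap, members at 0 in a whole genotype, and the 5 with the largest ratio of the highest library to the next among those reaching 50 RPKM. Further names were picked as examples. Of the 5 called members, 1 is counted but not reported by name here. Deviations from the genotype's mean were compared between dnTCF4 and WT libraries of the same number. They correlated at 0.17, 0.35 and 0.30 across genes, above the bound of 0.1, and values for libraries of different number are not given here. The labels state no pairing. The main fit therefore used none, and the replicate block was fitted as an alternative. The series describes 3 mice per genotype, and libraries were treated as separate animals.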

Additional observations from a re-analysis of the deposited data

How the results depend on the processing

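The log2 difference of the summed level kept its sign and moved by less than the spread between replicates under median ratio scaling, with immunoglobulin genes left out of the scaling, as a share of reads and for V genes alone. It ranged from -3.58 to -2.54 when a library was left out. For the pseudogenes alone, an alternative added after seeing the data, it was -0.18, and without the highest segment of each library, also added then, it was -3.35. The difference in detected segments, -14.0 at 1 RPKM, was -5.33 at 0.1 RPKM, -5.33 for any value above 0 and 4.31 for segments with any read at an equal number of Ighv1 reads, whose like is the -5.33 for any value above 0 and not the -14.0. It ranged from -18.3 to -10.2 without a library. The difference in the top share ranged from 1.71 to 17.8 percentage points without a library. The difference in shared top segments between dnTCF4 pairs and WT pairs, -23.3 percentage points of the 10 highest, was -53.3 for the 5 highest and -3.33 for the 20 highest, and ranged from -33.3 to -10.0 without a library.

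The 5 calls became 0 without a filter, 3 after median ratio scaling, 2 with voom on recovered reads and 9 with the replicate block, and ranged from 1 to 9 without a library. Over all genes tested, calls lower in dnTCF4 were 29 in the main fit. They were 5 without a filter, 26 after median ratio scaling, 14 with voom, 42 with the replicate block and 7 to 34 without a library. The cause of these changes was not tested. Ighv1-36, which was not called, turned from a log2 fold change of -1.41 to 0.62 without WT replicate 1 and 0.14 with voom, and was -3.47 without WT replicate 3. Counts of a few reads or none limit the values of Ighv1-11, Ighv1-42 and Ighv1-47 in dnTCF4, and reads that match several segments limit those of single segments.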
